A study of Homo sapiens with 4 samples.

Results

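A set of 9 genes often used to normalize reverse transcription quantitative PCR (RT-qPCR) was followed in senescent WI-38 cells with and without G3BP1: *GAPDH*, *ACTB*, *TBP*, *HPRT1*, *B2M*, *PPIA*, *YWHAZ*, *SDHA* and *GUSB*. They were chosen by symbol, with no threshold on their values, and each matched 1 of the 58219 genes of the deposited table. WI-38 is a line of normal fibroblasts from human embryonic lung. All 4 libraries came from cells that had received 10 Gy of ionizing radiation, which drives the cells into senescence, and that were harvested at day 8. The 2 siCTL libraries, called A and B, came from cells given a scrambled control siRNA, and the 2 siG3BP1 libraries, also A and B, from cells given an siRNA that targets *G3BP1*, the gene of a stress granule protein that binds RNA. Proliferating and unirradiated cells do not enter the comparison. Whether A and B were separate cultures is not in the labels, so that p-values measure only the spread between these libraries, which may be technical.

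RT-qPCR reports the amount of a transcript as a ratio to a reference transcript measured in the same cDNA. The ratio equals the change of the transcript of interest only where the reference has the same level in both conditions. Reference genes are therefore taken from processes that most cells run all the time, such as glycolysis, the cytoskeleton, protein folding or basal transcription, and several from unrelated processes are often combined. The study normalized its RT-qPCR to *GAPDH*. The question put to the sequencing data is how even each of these transcripts was between siCTL and siG3BP1 cells, and how far the choice of reference alters a ratio.

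The values are normalized reads, that is, reads counted per gene and divided by a size factor of their library. The libraries held between 16944404 and 22745000 reads counted in genes, and 13422 genes averaging 10 normalized reads or more entered the test (limma on log2(value + 0.5)). Fold changes below are siG3BP1 over siCTL on that log2 scale. Libraries of 1 group differed beyond sampling noise, more between the siG3BP1 libraries (chi-square per gene 86.5) than between the siCTL libraries (30.4). The deviation of each library from the gene means followed the exonic GC content of the genes, with a Spearman rho between -0.79 and -0.71 in the siCTL libraries and between 0.62 and 0.77 in the siG3BP1 libraries, across genes, which are not independent replicates. The fibroblast transcripts *COL1A1*, *COL1A2* and *VIM* were abundant in every library, at between 69912 and 139901 normalized reads. Of 8 fibroblast markers tested, 1 rose (*VIM*, 0.73), 3 fell (*COL3A1*, -0.85, *DCN*, -1.06, and *LUM*, -2.86) and 4 did not pass. Over all genes tested, 25.9% rose and 30.5% fell. Of the defining markers of other cells, *KRT5*, *CDH5*, *MYOD1* and *MYF5* were listed at 0 in all 4 libraries, while *KRT19*, a keratin of simple epithelia, was at 35.1 (A) and 131 (B) normalized reads in siCTL and 132 (A) and 326 (B) in siG3BP1. The 4 epithelial markers summed to between 36.7 and 134 in siCTL and between 133 and 327 in siG3BP1. The 4 endothelial markers, mostly *VWF*, summed to between 27.1 and 39.2 in siCTL and between 37.7 and 78.1 in siG3BP1. The 4 muscle markers, through *DES* and *MYH11*, summed to between 21.6 and 65.6 in siCTL and between 15.4 and 68.0 in siG3BP1. The 4 immune markers summed to between 3.06 and 3.99 in siCTL and between 2.46 and 8.80 in siG3BP1. Their part in the results was not tested.

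The members differ in base composition, against which their changes are set below. To show it, 90 bases from the middle of the coding sequence, in frame, are given for a pair of genes that were higher in siG3BP1 (*GAPDH*, *SDHA*), for a pair that were lower (*HPRT1*, *B2M*) and for *PPIA*, from the Gencode transcripts of GRCh38. They run 5′ to 3′ and G and C are in capitals:
GAPDH: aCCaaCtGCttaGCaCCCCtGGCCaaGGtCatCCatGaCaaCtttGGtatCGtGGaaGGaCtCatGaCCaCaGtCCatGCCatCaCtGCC
SDHA: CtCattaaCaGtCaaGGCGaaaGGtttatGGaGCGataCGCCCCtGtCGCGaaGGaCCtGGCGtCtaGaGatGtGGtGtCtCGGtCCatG
PPIA: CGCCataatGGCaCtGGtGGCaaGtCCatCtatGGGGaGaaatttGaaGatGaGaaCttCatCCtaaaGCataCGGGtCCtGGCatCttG
B2M: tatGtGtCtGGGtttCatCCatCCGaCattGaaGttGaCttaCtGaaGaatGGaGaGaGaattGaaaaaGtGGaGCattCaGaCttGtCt
HPRT1: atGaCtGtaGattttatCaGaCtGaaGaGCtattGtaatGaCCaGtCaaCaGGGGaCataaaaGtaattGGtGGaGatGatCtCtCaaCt
The windows hold 53.3% G and C in *GAPDH*, 54.4% in *SDHA*, 47.8% in *PPIA*, 40% in *B2M* and 37.8% in *HPRT1*. Over the whole coding sequence the share of G or C at the third codon position ran from 39.7% in *HPRT1* to 84.6% in *ACTB*.

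*GAPDH*, *ACTB* and *SDHA* rose in siG3BP1 cells, *B2M*, *HPRT1* and *YWHAZ* fell, and *PPIA*, *GUSB* and *TBP* did not pass the test. The 9 genes thus did not move as 1 group. The log2 fold changes ran from 1.10 for *GAPDH* to -1.46 for *B2M*, a range of 2.56 on the log2 scale or 5.89-fold between genes that each serve as a constant, with a median of 0.29 against 0.04 over all genes tested. All 9 genes were tested, and 6 of them passed at an adjusted p of 0.05 (limma with Benjamini-Hochberg adjustment over 13422 genes, two-sided, n = 2 libraries per group). Of all genes tested 56.4% passed, 25.9% higher and 30.5% lower, so that the count among the reference genes lies near this background. The groups did not overlap in 9 of 9 reference genes, against 83.3% of all genes tested. With 2 libraries against 2, an exact permutation test of a single gene cannot go below p = 0.333, and the calls draw on the spread over all genes. With any 1 library left out in limma, all 9 genes kept the sign of their log2 fold change (no other tool was run on 3 libraries). *GAPDH* then lay between 0.72 and 1.48, and *B2M* between -1.93 and -0.98. Such a fit leaves 1 library in a group, whose spread cannot be measured. The calls over all genes shift with the library left out, so calls of these 9 in such fits do not describe the reference genes.

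**Figure D1:**
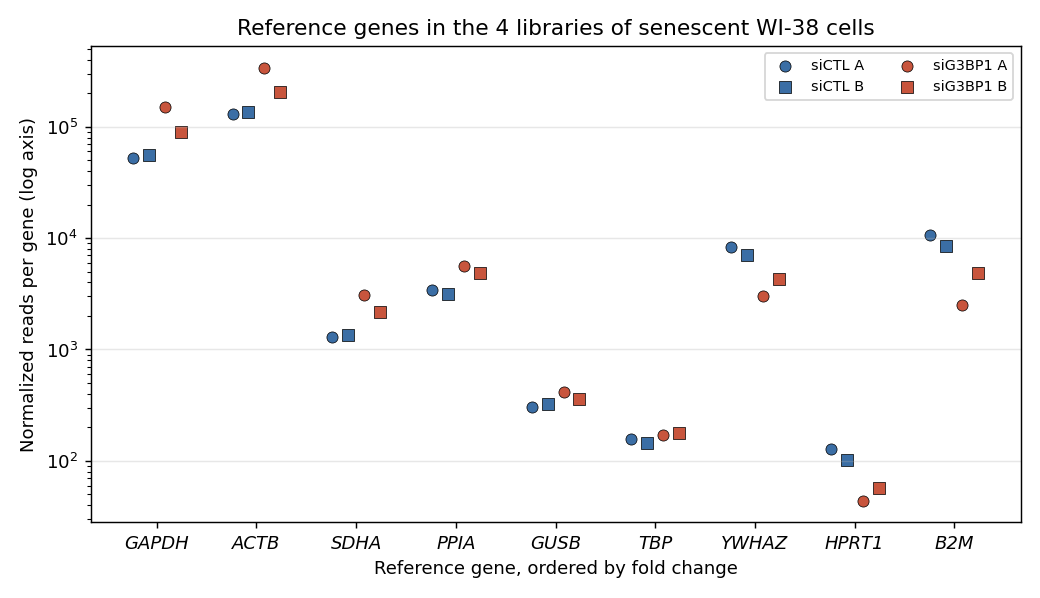
Normalized reads (log axis) of the 9 reference genes in each of the 4 libraries. Blue points are siCTL and red points siG3BP1, circles are A and squares B. *GAPDH*, *ACTB* and *SDHA* lie higher in both siG3BP1 libraries and *YWHAZ*, *HPRT1* and *B2M* lower, relative to the deposited scaling (scaled by *GAPDH* alone, *ACTB* and *SDHA* turn to slightly lower, and scaled by *B2M* alone *YWHAZ* and *HPRT1* to slightly higher), and for most genes siG3BP1 A lies further out than siG3BP1 B.

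*GAPDH*, glyceraldehyde-3-phosphate dehydrogenase of glycolysis and the reference of the study, lies on chromosome 12 of GRCh38 from 6533927 to 6538374. It stood at 52101 normalized reads in siCTL A and 56045 in siCTL B, and at 150344 in siG3BP1 A and 89264 in siG3BP1 B. Both siG3BP1 libraries lay above both siCTL libraries, and they were further from each other than the siCTL libraries were. The means were 54073 ± 2788 in siCTL and 119804 ± 43190 in siG3BP1 (SD, n = 2), which is 2.22-fold. The log2 fold change was 1.10 (standard error 0.32, 95% interval 0.47 to 1.73, adjusted p = 0.00265 from limma). The libraries called A gave 1.53 and those called B 0.67, although no source used here says that the letters mark pairs. The rise kept its direction under each scaling by many genes, the lowest being 0.56 under quantile normalization, where the adjusted p from limma was 0.0730. It also did not pass in limma with no filter on low values (adjusted p = 0.112) or under a correction for exonic length (0.82, adjusted p = 0.0755). With siCTL A left out the log2 fold change was 1.05, and with siCTL B left out 1.15.

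Of 16 other enzymes of glycolysis tested, 11 rose, 1 fell and 4 did not pass, where 25.9% of all genes tested rose and 30.5% fell. Their median log2 fold change was 0.87 against 0.04 over all genes tested. *ENO2* (enolase 2) rose by 1.09 and *TPI1* (triosephosphate isomerase) by 1.08 on the log2 scale, with adjusted p = 0.00447 and 0.00417 from limma. *LDHB*, a lactate dehydrogenase subunit, fell by 1.44 on the log2 scale (adjusted p = 2.30e-04 from limma). Its partner subunit *LDHA* had a log2 fold change of -0.66 (adjusted p = 0.0756). Of 62 processed copies of *GAPDH* named in the table, 23 had reads, and they summed to 0.156% of *GAPDH*. The 1 copy that passed, *GAPDHP1*, had a log2 fold change of 1.11 (adjusted p = 0.00900 from limma), close to that of *GAPDH*, and reads of near-identical copies may be shared. An annotated gene on the opposite strand (ENSG00000269968) shares 422 exonic bases with *GAPDH* and stood at 593 and 585 normalized reads in siCTL, 1809 and 984 in siG3BP1. The libraries were stranded, but whether strand was used in counting is not given in the sources used here.

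*ACTB*, the cytoplasmic beta-actin of the cytoskeleton (chromosome 7, 5527151 to 5563784), was the most abundant of the 9 genes, with a mean of 46184 normalized reads per kilobase of exon. Its values were 131360 (A) and 135917 (B) normalized reads in siCTL and 339610 (A) and 206868 (B) in siG3BP1. The pattern over the 4 libraries was nearly that of *GAPDH*, with siCTL libraries close together and siG3BP1 A highest. The log2 change was 0.99 (standard error 0.32, 95% interval 0.37 to 1.61, adjusted p = 0.00577 from limma). Scaled by *GAPDH* alone the sign turned (-0.11, adjusted p = 0.672 from limma), and it kept its sign under the scalings by many genes. It did not pass under quantile normalization (0.52, adjusted p = 0.105) or with no filter on low values (adjusted p = 0.258), both from limma. With 1 library left out the log2 fold change of *ACTB* lay between 0.63 and 1.35. *GAPDH* and *ACTB* together took 1.36% and 1.38% of the reads counted in genes in siCTL A and B, and 2.60% and 1.88% in siG3BP1 A and B. Among 4 other actins tested, *ACTG1*, the other cytoplasmic actin, rose by 1.09 and *ACTG2*, a smooth muscle actin, by 0.78 on the log2 scale (adjusted p = 0.00293 and 0.0334 from limma). *ACTA2* and *ACTC1*, actins of smooth and cardiac muscle, had log2 fold changes of 0.60 and 0.19 and did not pass. Over all genes tested, 25.9% rose and 30.5% fell.

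*SDHA*, the flavoprotein subunit of succinate dehydrogenase (complex II of the respiratory chain), lies on chromosome 5 from 218241 to 256700. Its values were 1282 (A) and 1351 (B) normalized reads in siCTL and 3086 (A) and 2188 (B) in siG3BP1. The groups were apart and siG3BP1 A was again highest. Its log2 fold change was 0.98 (standard error 0.33, 95% interval 0.33 to 1.64, adjusted p = 0.00935 from limma). Scaled by *GAPDH* alone it was -0.12 (adjusted p = 0.721), and scaled by the total of reads counted in genes 0.65 (adjusted p = 0.0787). Of the other parts of complex II, 1 assembly factor passed. *SDHB*, *SDHC* and *SDHD*, which encode the other subunits, had log2 fold changes of 0.40, 0.11 and -0.69, with adjusted p = 0.299, 0.782 and 0.0724 from limma. Of 7 tested genes of complex II and its assembly, 1 rose, the assembly factor *SDHAF1* (1.11, adjusted p = 0.00619 from limma). The other 6 did not pass, among them the assembly factors *SDHAF2* (0.70) and *SDHAF3* (-1.06). Over all genes tested, 25.9% rose and 30.5% fell. The *SDHA* pseudogene *SDHAP1*, from which reads could be shared, had a log2 fold change of 0.30 (adjusted p = 0.531), and the pseudogenes of *SDHA* summed to 2.57% of *SDHA*. An annotated gene on the same strand shares 1887 exonic bases with *SDHA* and was not analysed here.

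*PPIA* encodes cyclophilin A, a prolyl isomerase that helps proteins fold and is the target of cyclosporin (chromosome 7, 44796680 to 44824564). Its values were 3451 (A) and 3169 (B) normalized reads in siCTL and 5659 (A) and 4867 (B) in siG3BP1. Both siG3BP1 libraries were above both siCTL libraries, and libraries of 1 group lay close together. The log2 fold change was 0.67 (standard error 0.33, 95% interval 0.02 to 1.32). The unadjusted p was 0.0448 and the adjusted p 0.0732 from limma, whereas DESeq2 on the recovered reads gave an adjusted p of 0.0417. Scaled by *GAPDH* alone it was -0.43 (adjusted p = 0.279 from limma). The other cyclophilins went both ways. Of 14 tested, 2 rose, 7 fell and 5 did not pass, with a median log2 fold change of -0.69 against 0.04 over all genes tested (56.4% of which passed). *PPIF*, the cyclophilin of mitochondria, and *PPIL2*, a nuclear cyclophilin, rose by 1.03 and 0.97 on the log2 scale (adjusted p = 0.00698 and 0.0107). *PPIG* and *PPIL4*, nuclear cyclophilins as well, fell by 1.81 and 1.68 (adjusted p = 1.81e-05 and 3.56e-05 from limma). Processed copies of *PPIA* summed to 4.24% of its value.

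*GUSB*, the lysosomal enzyme beta-glucuronidase that helps degrade glycosaminoglycans, lies on chromosome 7 from 65960684 to 65982314. Its values were 305 (A) and 322 (B) normalized reads in siCTL and 411 (A) and 357 (B) in siG3BP1. The groups did not overlap, and the gap between them was small. The log2 change was 0.29 (standard error 0.34, 95% interval -0.37 to 0.95, adjusted p = 0.460 from limma), an interval that leaves room for changes in either direction. It turned to -0.04 when scaled by the total of reads and to -0.81 scaled by *GAPDH* alone. Of 12 other lysosomal enzymes of glycosaminoglycan breakdown tested, 7 rose and 5 did not pass, where 25.9% of all genes tested rose and 30.5% fell. Their median log2 fold change was 0.89 against 0.04 over all genes tested, and their median SD of the log2 values over the 4 libraries was 0.56, close to the 0.60 of all genes tested. *SGSH*, a sulfatase of heparan sulfate, rose by 1.33 (adjusted p = 5.93e-04 from limma) and *NAGLU*, a glucosaminidase, by 0.999 (adjusted p = 0.00861). *IDS*, a sulfatase, had a log2 fold change of -0.63 and did not pass. Pseudogenes named after *GUSB* summed to 14.4% of it, the largest such share among the 9 genes.

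*TBP*, the TATA-binding protein of the general transcription factor TFIID (chromosome 6, 170554302 to 170572870), had 157 (A) and 146 (B) normalized reads in siCTL and 169 (A) and 177 (B) in siG3BP1. These were the closest 4 values of any of the 9 genes, with a highest value 1.21 times the lowest. Its log2 fold change was 0.19 (standard error 0.35, 95% interval -0.49 to 0.87, adjusted p = 0.643 from limma), which turned to -0.14 when scaled by the total of reads and to -0.90 scaled by *GAPDH* alone. The standard error follows a trend over all genes at this level, not the spread of the *TBP* libraries themselves. The partners of *TBP* had a median SD of the log2 values over the 4 libraries of 0.51, below the 0.60 of all genes tested. Of 15 tested genes of TFIID and of *TBP*-related factors, 2 rose, 7 fell and 6 did not pass, near the 56.4% called over all genes tested, with a median log2 fold change of -0.68 against 0.04. The TFIID subunits *TAF10* and *TAF6* rose by 0.99 and 0.81 on the log2 scale (adjusted p = 0.00911 and 0.0325 from limma). *TAF7* and *TAF13*, subunits as well, fell by 1.55 and 1.31 (adjusted p = 9.04e-05 and 8.50e-04).

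*YWHAZ* encodes 14-3-3 zeta, an adaptor that binds phosphorylated proteins (chromosome 8, 100916525 to 100953388). Its values were 8381 (A) and 7040 (B) normalized reads in siCTL and 3003 (A) and 4287 (B) in siG3BP1. Both siG3BP1 libraries were below both siCTL libraries, siG3BP1 A being the lowest. The log2 fold change was -1.10 (standard error 0.33, 95% interval -1.75 to -0.45, adjusted p = 0.00361 from limma), lower under every scaling by many genes and under *GAPDH* alone, and 0.36 and 0.08 scaled by *B2M* or *HPRT1* alone. Of 5 other 14-3-3 genes tested, 2 fell and 3 did not pass, where 25.9% of all genes tested rose and 30.5% fell. *YWHAB* (14-3-3 beta) fell by 0.997 and *YWHAG* (14-3-3 gamma) by 0.89 on the log2 scale (adjusted p = 0.00797 and 0.0172 from limma). *YWHAH* (eta) and *YWHAQ* (theta) had log2 fold changes of -0.06 and -0.55 and did not pass. The median of the 5 was -0.70.

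*HPRT1*, hypoxanthine phosphoribosyltransferase of purine salvage (chromosome X, 134460153 to 134520513), had the fewest reads of the 9 genes, between 40 and 165 per library before scaling. Its values were 129 (A) and 101 (B) normalized reads in siCTL and 43.98 (A) and 57.4 (B) in siG3BP1. As for *YWHAZ*, both siG3BP1 libraries were below both siCTL libraries. The log2 change was -1.17 (standard error 0.37, 95% interval -1.91 to -0.44, adjusted p = 0.00571 from limma), lower under every scaling by many genes and under *GAPDH* alone, and 0.27 scaled by *B2M* alone. Purine salvage went both ways. *APRT*, which salvages adenine, and *PNP*, purine nucleoside phosphorylase, rose by 1.15 and 0.98 on the log2 scale (adjusted p = 0.00284 and 0.0101 from limma). *PRTFDC1*, a homolog of *HPRT1*, fell by 1.12 (adjusted p = 0.00910), and *ADK*, adenosine kinase, had a log2 fold change of -0.32 (adjusted p = 0.419).

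*B2M*, beta-2-microglobulin, the light chain of MHC class I molecules (chromosome 15, 44711477 to 44718877), showed the largest change of the 9 genes. Its values were 10709 (A) and 8461 (B) normalized reads in siCTL and 2489 (A) and 4820 (B) in siG3BP1. The siG3BP1 libraries were both below the siCTL libraries, and their own values differed by 0.95 on the log2 scale. Its log2 fold change was -1.46 (standard error 0.33, 95% interval -2.11 to -0.81, adjusted p = 1.64e-04 from limma), lower under every scaling run, by single members too, with -2.10 in the pair called A and -0.81 in the pair called B. No heavy chain that pairs with *B2M* passed as lower. Of 6 tested, *HLA-C* rose by 0.74 on the log2 scale (adjusted p = 0.0458 from limma) and 5 did not pass. The median log2 fold change of the 6 was 0.41. Over all genes tested, 25.9% rose and 30.5% fell. *FCGRT*, the heavy chain of the neonatal Fc receptor, had 0.71 (adjusted p = 0.0602), *HLA-B* 0.21 (adjusted p = 0.598) and *HFE*, which takes part in iron uptake, -0.52 (adjusted p = 0.189). Transcripts of the MHC class I heavy chains share long near-identical stretches, so that their reads may have been split between them.

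Ordered by level per kilobase of exon, the genes ran from *ACTB* (mean 46184 normalized reads per kilobase over the 4 libraries) and *GAPDH* (36285) through *B2M* (2121), *YWHAZ* (664), *PPIA* (632), *SDHA* (227), *GUSB* (89.6) and *TBP* (70.0) to *HPRT1* (51.3). The ranges of neighbours overlapped for *ACTB* and *GAPDH*, *B2M* and *YWHAZ*, *YWHAZ* and *PPIA*, and *TBP* and *HPRT1*. Within every library, however, *ACTB* was above *GAPDH* and *B2M* above *YWHAZ*. *YWHAZ* was above *PPIA* in both siCTL libraries and below it in both siG3BP1 libraries. *HPRT1* was above *TBP* in siCTL A only, so that the order within these last pairs is not fixed by these libraries.

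The evenness of each gene was described by the SD of its log2 value over the 4 libraries, whatever their group. *TBP* was most even, at an SD of 0.12, and 2.16% of all genes tested had a smaller one. *GUSB* followed with 0.19 (6.42% smaller) and *PPIA* with 0.40 (24.9%). *SDHA* (0.60) and *ACTB* (0.64) lay near the median of all genes tested, which was 0.60. *YWHAZ* (0.68), *GAPDH* (0.71), *HPRT1* (0.71) and *B2M* (0.94) were less even than the median, and 66.0% of all genes tested varied less than *GAPDH*, and 88.9% less than *B2M*. Among the 2885 genes that averaged 1000 normalized reads or more, these shares were 77.7% and 96.1%. The SDs rest on the deposited scaling and were not computed under another. Under quantile normalization the log2 fold changes of *TBP* and *GUSB* were 0.51 and 0.45, against 0.31 for *PPIA* and 0.52 for *ACTB*. The order of evenness may therefore differ there. The geometric mean of the 9 genes was 2950 (A) and 2761 (B) in siCTL and 3018 (A) and 2909 (B) in siG3BP1, with an SD of the log2 values of 0.05 and a log2 fold change of 0.05. The members that were higher and those that were lower offset each other in it, so that a small SD follows from their opposite signs.

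Ratios between the genes fell into blocks. Over the 36 pairs, the SD of the log2 ratio over the 4 libraries was lowest for *GAPDH* and *ACTB* (0.07), *HPRT1* and *YWHAZ* (0.08), *ACTB* and *SDHA* (0.09), *GAPDH* and *SDHA* (0.13) and *TBP* and *GUSB* (0.14). It was highest for *GAPDH* and *B2M* (1.64), whose ratio spanned 12.4-fold. The log2 ratio of *GAPDH* to *B2M* was 2.28 and 2.73 in siCTL A and B, and 5.92 and 4.21 in siG3BP1 A and B. *GAPDH* and *ACTB* thus kept their proportion while each changed by about as much as the other, and a constant ratio within a pair did not go with a constant level. Averaged over its 8 pairs, the SD was lowest for *GUSB* (0.58), *TBP* (0.59) and *PPIA* (0.61) and highest for *B2M* (1.10), with 0.76 for *GAPDH*. These ratios do not depend on a size factor. The averages do depend on the make-up of the set. With members that rose and members that fell, the genes of middle fold change lie nearest to the rest.

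**Figure D2:**
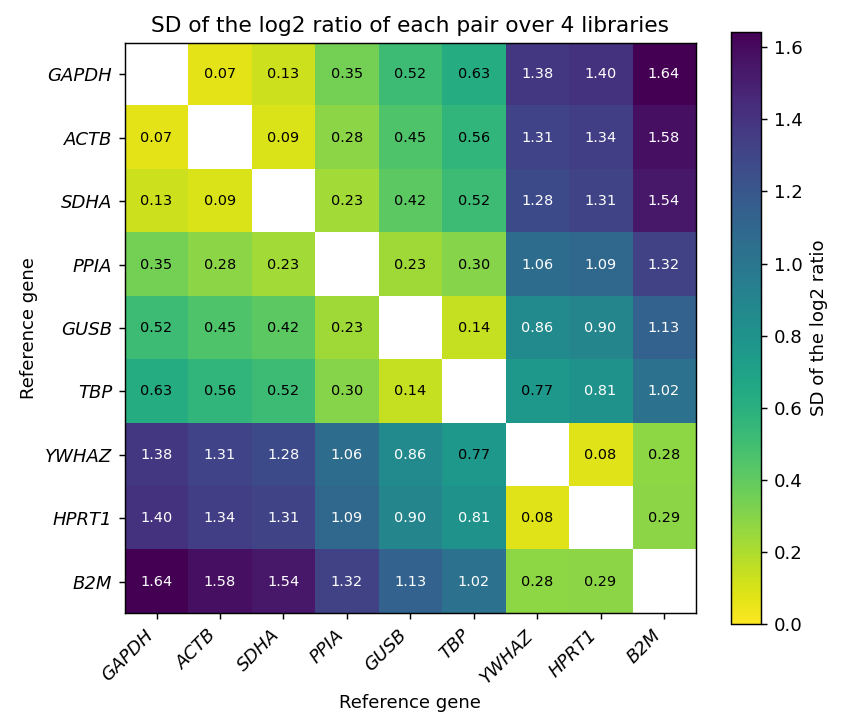
SD of the log2 ratio of each pair of reference genes over the 4 libraries. Genes are ordered by log2 fold change on both axes, and color gives the SD. The 3 genes that rose form a block of 0.07 to 0.13, *YWHAZ*, *HPRT1* and *B2M* another of 0.08 to 0.29, and pairs across both blocks reach 1.64.

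The order of the 9 fold changes followed base composition. Across the 9 genes, the log2 fold change had a Spearman rho of 0.90 and a Pearson r of 0.77 with exonic GC content. With the GC content of the mRNA these were 0.85 and 0.89. They are given as a description since the genes share the 4 libraries. The 3 genes that fell have exonic GC contents of 41.4% (*B2M*), 44.4% (*YWHAZ*) and 44.5% (*HPRT1*), and *GAPDH* and *ACTB* have 59.8% and 59.1%; the coding windows printed above differ in the same direction. Genes of like GC content moved in like manner. Among the 1335 tested genes of the decile that holds *GAPDH* and *ACTB* (57.4% to 60.9%), the median log2 fold change was 0.93, 877 rose and 4 fell. Among the 1335 of the decile of *B2M* (40.9% to 43.1%) the median was -1.07, 27 rose and 859 fell. *SDHA* and *TBP* share a decile, from 48.0% to 51.0%, with a median of 0.27. Exonic GC content counts all annotated exons of a gene, 8703 bases in *SDHA*. The *SDHA* transcript used for the coding window has 2693 bases and 52.5% G and C, and the *TBP* mRNA has 46.6%. The place of a gene against the GC trend thus depends on the measure, and deciles and correction used exonic GC content only. *PPIA*, at 46.7%, stood at 0.67 in a decile of median -0.22, and *GUSB*, at 55.8%, at 0.29 in one of median 0.84.

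**Figure D3:**
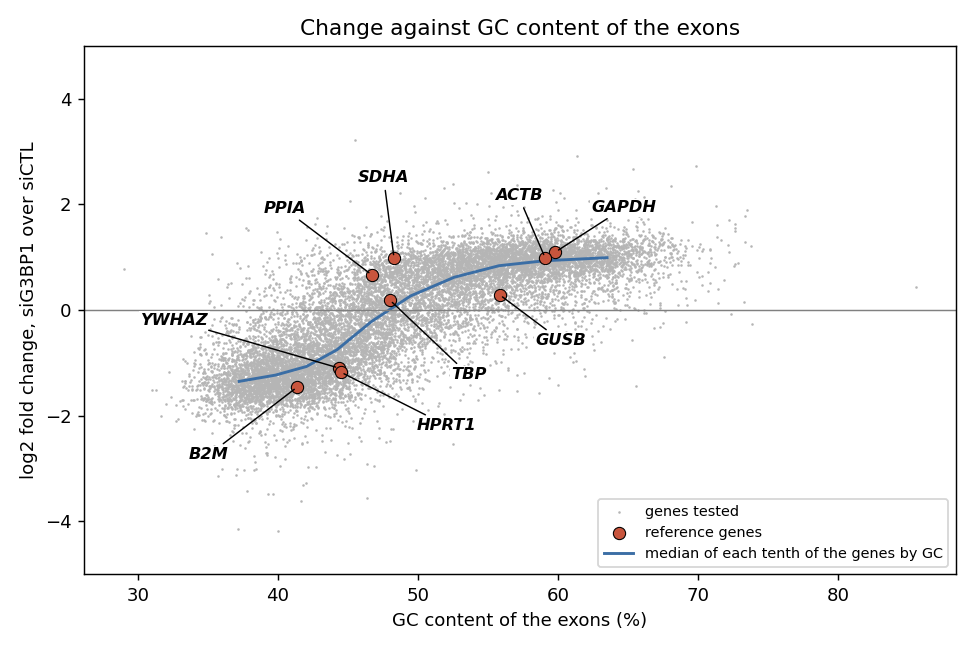
Log2 fold change (siG3BP1 over siCTL) against the GC content of the exons for 13350 genes tested (grey) and the 9 reference genes (red). The blue line joins the medians of the deciles by GC content, from -1.35 to 0.99. *GAPDH* and *ACTB* lie close to this line, *YWHAZ*, *HPRT1* and *B2M* below it, *SDHA* and *PPIA* above it and *GUSB* below it.

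Once a loess trend with exonic GC content had been taken from each library, none of the 9 genes passed in limma in the fit with no term for the library letter (5 at an unadjusted p under 0.05), and of the 13350 genes with a GC value 1 passed, *G3BP1* (0.00749% of them, 3775 being at an unadjusted p under 0.05). Both counts depend on leaving that term out. No other tool was run on corrected values. *GAPDH* went from 1.10 to 0.22 (adjusted p = 0.542) and *ACTB* from 0.99 to 0.12 (adjusted p = 0.786). *B2M* went from -1.46 to -0.44, *YWHAZ* from -1.10 to -0.48 and *HPRT1* from -1.17 to -0.58, with adjusted p = 0.222, 0.116 and 0.156. *SDHA* kept its size, at 0.95, and *PPIA* went from 0.67 to 0.86 (adjusted p = 0.0758 and 0.0740). *TBP* was at 0.20, and *GUSB* turned from 0.29 to -0.46 (adjusted p = 0.136). The range over the 9 genes was then 1.52. The GC trend separates the siCTL from the siG3BP1 libraries, so that it and the knockdown cannot be told apart in 4 libraries.

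**Figure D4:**
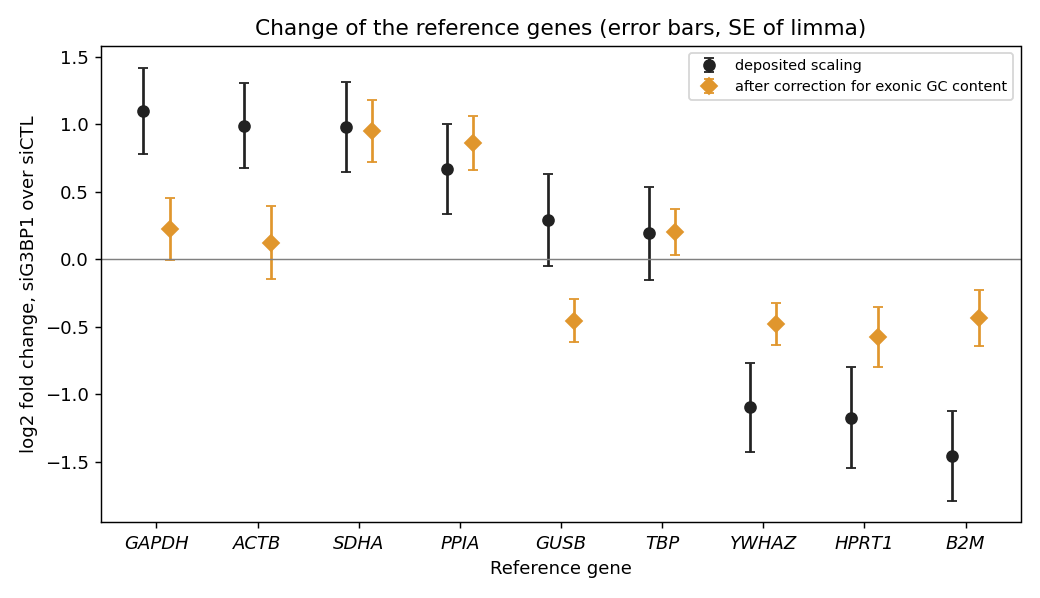
Log2 fold change of each reference gene with its standard error from limma (n = 2 libraries per group), as deposited (black circles) and after correction of each library for exonic GC content (orange diamonds). *GAPDH* and *ACTB* move to near 0, *SDHA* and *TBP* stay and *PPIA* moves further up, while *GUSB* changes sign. Scaled by *GAPDH* alone, *ACTB*, *SDHA*, *PPIA*, *GUSB* and *TBP* would lie below 0, and *GUSB* and *TBP* also when scaled by the total of reads.

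The siG3BP1 libraries differed from each other in nearly the same order. A minus B on the log2 scale was 0.75 for *GAPDH*, 0.72 for *ACTB*, 0.50 for *SDHA*, 0.22 for *PPIA* and 0.20 for *GUSB*, and -0.06 for *TBP*, -0.38 for *HPRT1*, -0.51 for *YWHAZ* and -0.95 for *B2M*. Between the siCTL libraries the same difference lay between -0.11 (*GAPDH*) and 0.34 (*HPRT1* and *B2M*). In 8 of 9 genes the fold change was closer to 0 in the pair called B than in the pair called A, *TBP* being the exception. The range over the 9 genes was 3.63 in the A pair and 1.51 in the B pair.

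The choice of reference set the size of a ratio and, for 1 transcript, its sign. *G3BP1* itself had 2675 (A) and 2522 (B) normalized reads in siCTL and 201 (A) and 271 (B) in siG3BP1, a log2 fold change of -3.47. Its ratio to *GAPDH* gave -4.57 (23.8-fold lower), to *ACTB* -4.46, to *SDHA* -4.45, to *PPIA* -4.14, to *GUSB* -3.76, to *TBP* -3.66, to *YWHAZ* -2.37, to *HPRT1* -2.30 and to *B2M* -2.01 (4.04-fold lower). The geometric mean of the 9 genes gave -3.53. *G3BP1* was lower in siG3BP1 with each of these references. These ratios use values not corrected for GC content. After that correction *G3BP1* itself was at -2.32, *GAPDH* at 0.22 and *B2M* at -0.44.

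*LMNB1*, *IL6* and *CXCL8*, which RT-qPCR is often used to follow in senescence, passed the filter on low values. The transcript of *IL6*, a cytokine of the senescence-associated secretory phenotype (SASP), stood at 115 normalized reads in both siCTL libraries, at 63.8 in siG3BP1 A and at 140 in siG3BP1 B, so that the groups overlapped (log2 fold change -0.28, adjusted p = 0.502 from limma). Relative to *GAPDH* it was lower (-1.38), relative to *ACTB* and *SDHA* also (-1.27 and -1.26), and relative to *B2M* it was higher (1.18), as it was relative to *HPRT1* (0.89) and *YWHAZ* (0.82). In the ratio to *GAPDH* both siG3BP1 pairs were lower (-2.37 and -0.39 for A and B), and in the ratio to *B2M* both were higher (1.26 and 1.09). *CXCL8*, the chemokine IL-8, had 139 (A) and 120 (B) normalized reads in siCTL and 28.6 (A) and 35.2 (B) in siG3BP1 (log2 fold change -2.004, adjusted p = 1.38e-05 from limma). Its log2 ratio to *GAPDH* changed by -3.10 and to *B2M* by -0.55. *LMNB1*, which encodes lamin B1 and declines in senescence, stood at 96.6 and 85.8 in siCTL and at 18.7 and 37.7 in siG3BP1 (log2 fold change -1.76, adjusted p = 1.92e-04). Its log2 ratio to *GAPDH* changed by -2.86 and to *B2M* by -0.30. *CXCL8* and *LMNB1* were lower with all 9 references. *TNF* was listed at 0 in all 4 libraries and *IFNB1* in 3 of 4, and neither has a fold change. These ratios were computed from sequencing values not corrected for GC content, not from RT-qPCR. After the GC correction, with no term for the library letter, the log2 fold change of *IL6* was 0.09 (adjusted p = 0.862 from limma). *CXCL8* was then at -0.77 and *LMNB1* at -2.05, and neither passed (adjusted p = 0.121 and 0.0628 from limma).

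**Figure D5:**
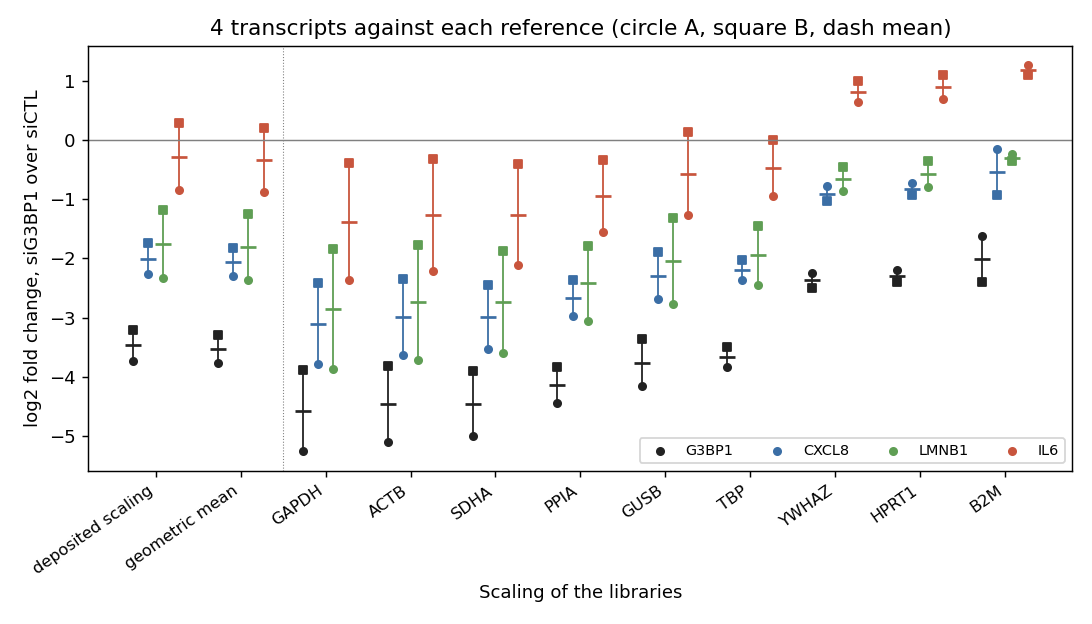
Log2 fold change (siG3BP1 over siCTL) of *G3BP1*, *CXCL8*, *LMNB1* and *IL6* as deposited, relative to the geometric mean of the 9 reference genes, and relative to each of them. Circles are the pair called A, squares the pair called B and dashes their mean. No value drawn is corrected for GC content. *IL6* runs from -1.38 relative to *GAPDH* to 1.18 relative to *B2M*, and *G3BP1* from -4.57 to -2.01.

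Scaling each library by a single gene shifts the log2 fold changes of all genes alike, so that the direction of the calls over the whole table follows from the fold change of that gene. As deposited, 3481 genes rose and 4095 fell. With each library scaled by *GAPDH* alone, no gene passed in limma (5907 at an unadjusted p under 0.05, no other tool being run on this scaling), and by *ACTB* alone none (5631 at an unadjusted p under 0.05). Scaled by *SDHA* 6 rose and 5243 fell, by *PPIA* 77 and 5681, by *GUSB* 1019 and 4596, and by *TBP* 1712 and 4539. Scaled by *YWHAZ* 6527 rose and 36 fell, by *HPRT1* 7023 and 35, and by *B2M* 6685 and 17. The geometric mean of the 9 genes gave 2990 and 4150. Scaled by the total of reads counted in genes, 636 rose and 4339 fell. The median log2 fold change over all genes was -1.05 when scaled by *GAPDH* and 1.48 when scaled by *B2M*.

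Of 22 further reference genes of RT-qPCR, 13 rose, 3 fell and 6 did not pass, where 25.9% of all genes tested rose and 30.5% fell. Their median log2 fold change was 0.89 against 0.04 over all genes tested, and their median SD of the log2 values over the 4 libraries was 0.58 against 0.60. *CYC1* (cytochrome c1) rose by 1.21 and *TUBA1B* (alpha-tubulin) by 1.12 on the log2 scale (adjusted p = 0.00177 and 0.00304 from limma). *IPO8* (importin 8) fell by 1.64 and *TFRC* (transferrin receptor) by 1.38 (adjusted p = 3.86e-05 and 3.71e-04). The other one that fell was *TOP1* (topoisomerase I, -1.27, adjusted p = 0.00107), named because few fell and after its value was seen. Of 11 genes known for even levels across human tissues, 4 rose and 7 did not pass, with a median log2 fold change of 0.54. Their median SD was 0.38, lower than that of all genes tested. *PSMB4* (a proteasome subunit) rose by 0.93 and *GPI* (glucose-6-phosphate isomerase) by 0.91 (adjusted p = 0.0126 and 0.0147), and so did *CHMP2A* and *VCP* (0.83 and 0.80, adjusted p = 0.0267 and 0.0299), both named after their values were seen. *VPS29*, a subunit of retromer, and *RAB7A*, a GTPase of late endosomes, had log2 fold changes of -0.40 and -0.11 and did not pass, and their groups overlapped.

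The genes whose pattern over the 4 libraries was most like that of each reference gene were found among 10219 genes, by the Euclidean distance of the log2 deviations from the gene mean. For *GAPDH* they were *NOL6* (distance 0.0089), *MEN1* (0.012) and *SCAMP4* (0.020). *NOL6* had 1118 (A) and 1207 (B) normalized reads in siCTL and 3212 (A) and 1917 (B) in siG3BP1. The nearest gene was *GRASP* for *ACTB*, *DNAAF5* for *SDHA*, *EIF2B5* for *PPIA*, *NRF1* for *GUSB*, *PSMA6* for *TBP*, *MAP3K5* for *YWHAZ*, *DDAH1* for *HPRT1* and *TNFRSF11B* for *B2M*. The *PSMA6* values of 83.0 and 77.2 in siCTL, and 88.0 and 95.9 in siG3BP1, were as even as those of *TBP*. With 4 points such likeness is a description.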

How the data were processed

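Total RNA of 2 siCTL and 2 siG3BP1 libraries was sequenced. The authors trimmed the paired-end reads with Trimmomatic 0.35, aligned them to GRCh38 with STAR and normalized the read counts with DESeq2 1.22.1. RSEM served them for TPM or FPKM values, which were not used here. TopHat2 2.0.10, mm10 and GRCm38 appear in the submitters' processing notes without a role. The deposited values are a signal, the reads of a gene over the size factor of its library. Undoing that division gave whole reads for 100% of values (tolerance 1e-06 reads), with factors of 1.25, 1.63, 0.910 and 1.22. Further deposited columns hold the authors' own log2 fold changes and p-values and were not used.

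Values of genes with a mean of at least 10 were tested as log2(value + 0.5) with limma 3.58.1 (mean-variance trend, R 4.3.3), two-sided, p-values being adjusted by Benjamini-Hochberg (threshold 0.05). A fold change on this scale understates the change of low genes. The prior degrees of freedom in limma were not finite, so that a standard error follows the trend over genes. edgeR 4.0.16 and DESeq2 1.42.0 were run on the recovered reads. The fits were also run on simulated reads with the same spread in both groups, unlike these libraries. Exonic GC content came from Gencode 44, for 99.5% of tested genes, and corrections used loess (span 0.3). A count of 0 allows up to 3 reads.

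Members and lists were chosen with earlier results of these data known. Named are the members, *G3BP1*, the transcripts of the study's RT-qPCR, the 3 genes most like *GAPDH* and the 1 most like each other member, and up to 4 genes per list (the 2 highest and 2 lowest fold changes). Some genes that the rule names are left out of the text. The complex II subunits were named beside *SDHA* and marker genes to check the cell type. Alternatives were other pseudocounts, filters, scalings, tools, GC and length corrections, the replicate letter as a block, protein-coding genes only, and each library left out.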

Additional observations from a re-analysis of the deposited data

How the results depend on the processing

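The depth limits *HPRT1* most, with 40 reads in siG3BP1 A. The count of genes past the threshold, 7576, was 4975 when scaled by the total of reads in genes (library-total scaling), 0 scaled by *GAPDH* or *ACTB* in limma (5907 and 5631 at an unadjusted p under 0.05), 1 after GC correction and 3885 after GC correction with the replicate block, and between 17 (without siCTL B) and 9625 (without siG3BP1 B) with 1 library left out. Where 1 library was left alone in its group, it was assumed to vary like the others. The count of reference genes past it, 6, was 0 scaled by *GAPDH* (3 at an unadjusted p under 0.05) and 0 after GC correction (5 at an unadjusted p under 0.05), and between 0 and 7 with 1 library left out. The labels do not say what the letters A and B mark, and the A minus B differences of both groups correlate at 0.30 over genes. With the letter as a block, 6044 genes and 5 reference genes passed, *SDHA* being lost (adjusted p = 0.0532 from limma). With the block and the GC correction together, *SDHA* and *PPIA* passed as higher and *YWHAZ* and *GUSB* as lower (adjusted p = 2.02e-06, 4.29e-05, 0.0359 and 0.0459).

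Scaled by *GAPDH*, *ACTB* turned to -0.11, *SDHA* to -0.12, *PPIA* to -0.43, *GUSB* to -0.81 and *TBP* to -0.90. Under library-total scaling, *TBP* turned to -0.14 and *GUSB* to -0.038, under the length correction *TBP* turned to -0.10, and under the GC correction, with the block or without it, *GUSB* turned to -0.46. The causes were not tested. The median of all genes, 0.04, moved by over 0.1 under library-total scaling (to -0.29), over protein-coding genes alone (to -0.07) and with each single member as the scale. *GAPDH*, *B2M*, *YWHAZ* and *HPRT1* kept their direction under all alternatives to their fold change (*YWHAZ* and *HPRT1* turned only with another member that fell as the single scale), with adjusted p from limma between 0.00170 and 0.597 for *GAPDH*. Filters, pseudocounts, TMM, upper quartile, edgeR, DESeq2 and protein-coding genes alone left the count of reference genes at 6, except no filter (4) and DESeq2 (7), and quantile normalization gave 4. The range of the fold changes was 2.56, from 1.52 after GC correction to 3.41 without siG3BP1 B. *G3BP1*, at -3.47 as deposited, was at -4.57, -4.46, -4.45, -4.14, -2.37, -2.30 and -2.01 relative to *GAPDH*, *ACTB*, *SDHA*, *PPIA*, *YWHAZ*, *HPRT1* and *B2M*, and between -3.69 and -3.26 with 1 library left out.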
